A study of Mus musculus with 9 samples.

Results

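Genes of cholesterol and fatty acid synthesis, with their sterol sensors and cholesterol transporters, were described in mouse uterus exposed to medium from human embryos. The list held 34 genes, taken by symbol, and 32 of them had values among the 35934 genes with values. The expression of Hmgcs1 and Mvd was not analysed here. A gene's value was the sum of the FPKM (fragment counts scaled to transcript length and to the mapped fragments of the library) of its annotated transcripts. Of the 32 genes, 24 were tested in a fit of 12039 genes, 5 were left out because they were listed at 0 in some libraries and well above 0 in others, 2 were listed at 0 in every library, and 1 averaged under 1 FPKM.

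The 9 libraries came from whole uterus of C57BL/6 females, 3 per group, and no genetic change is named in the labels. All animals were immature (25 days by the treatment protocol, 21 days in the design text, which was not settled) and had received 1 mg progesterone and estradiol at 10 mg/kg per day over 3 days. Each horn was then injected with 50 µl of medium. The control group received unconditioned embryo culture medium, the competent group pooled medium conditioned by 9 developmentally competent human embryos, and the arrested group pooled medium conditioned by 18 arresting embryos. Each conditioned medium was a pool, so the 3 libraries of a group do not sample separate embryos. Whether each library came from its own animal is not given in the sources used here, and the p-values measure only the spread between these libraries.

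Cells build cholesterol from acetyl-CoA. The mevalonate pathway makes isoprenoid units, which are joined into squalene, closed into lanosterol and trimmed to cholesterol. Fatty acid synthesis starts from the same acetyl-CoA. Most of these enzymes are under SREBP transcription factors, which stay in the endoplasmic reticulum, bound to the escort protein SCAP and the anchor proteins INSIG, while sterols are plentiful, and move to the Golgi for cleavage when sterols are low. In uterus, cholesterol serves membranes of growing cells, and estradiol and progesterone drive rounds of growth of the epithelium and stroma.

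Promoter letters are shown for Idi1, Cyp51, Insig1 and Srebf2, an enzyme of the early pathway, an enzyme of the late pathway, a sensor and the SREBP gene itself, because competent library 2 held the highest FPKM of each of these 4 genes. The sequences are the 250 bases before the annotated start, from RefSeq on GRCm38.p6, printed 5′ to 3′ on the gene's strand. Capitals mark the NF-Y box CCAAT (or ATTGG on the other strand), the Sp1 box GGGCGG (or CCGCCC), the E-box CACGTG, and in Srebf2 the sterol element core TCACCCCA.
Idi1, chr13:8885356-8885605, plus strand: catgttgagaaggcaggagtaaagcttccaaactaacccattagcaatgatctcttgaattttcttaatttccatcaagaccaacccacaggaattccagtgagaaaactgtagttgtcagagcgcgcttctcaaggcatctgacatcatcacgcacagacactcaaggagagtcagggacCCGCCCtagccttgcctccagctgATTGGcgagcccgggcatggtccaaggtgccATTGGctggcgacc
Cyp51, chr5:4104698-4104947, minus strand: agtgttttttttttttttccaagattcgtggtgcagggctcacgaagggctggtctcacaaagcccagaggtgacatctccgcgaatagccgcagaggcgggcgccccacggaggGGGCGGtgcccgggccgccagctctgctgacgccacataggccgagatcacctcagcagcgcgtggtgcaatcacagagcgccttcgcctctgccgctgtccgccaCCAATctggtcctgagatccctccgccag
Insig1, chr5:28071162-28071411, plus strand: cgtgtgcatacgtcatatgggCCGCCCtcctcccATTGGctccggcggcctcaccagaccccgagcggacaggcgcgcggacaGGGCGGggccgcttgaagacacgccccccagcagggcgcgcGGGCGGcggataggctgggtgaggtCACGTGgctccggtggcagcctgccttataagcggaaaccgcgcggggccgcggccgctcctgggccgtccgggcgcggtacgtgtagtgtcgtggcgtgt
Srebf2, chr15:82147019-82147268, plus strand: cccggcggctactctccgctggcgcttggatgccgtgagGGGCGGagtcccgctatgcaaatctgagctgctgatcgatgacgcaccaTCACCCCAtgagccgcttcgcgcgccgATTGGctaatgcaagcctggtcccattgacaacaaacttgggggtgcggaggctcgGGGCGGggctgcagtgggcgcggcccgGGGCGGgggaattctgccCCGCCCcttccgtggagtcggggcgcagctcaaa

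The motifs were searched on both strands in the 300 bases from 250 before to 50 after each start, for the 25 listed genes with a RefSeq promoter and for all 32851 promoters in the table. A gene was counted when any of its promoters held the motif. CCAAT was found for 19 of the 25 genes, beside 41.1% of the 27025 genes with a promoter in the table. GGGCGG was found for 21 of the 25 genes, beside 38.2% of all genes. CACGTG was found for 6 genes, Insig1 and Sc5d among them, beside 8.09% of all genes. Counted by promoter, these motifs were in 20, 25 and 7 of the 33 promoters of the listed genes, and in 37.4%, 35.7% and 7.15% of all promoters. The sterol regulatory element in the form TCACNCCAC was found only for Hmgcs1 among the 25 genes, beside 1.44% of all genes. The shorter core TCACCCCA, searched after the sequences had been seen, was found for Hmgcs1 and Srebf2, beside 1.77% of all genes. The motifs as searched do not overlap one another within the printed windows. On NCBIM37 (mm9), the build of the expression files, the annotation places Idi1 at chr13:8884852-8891641 and Srebf2 at chr15:81977696-82035806 on the plus strand, Insig1 at chr5:28397952-28405201 on the plus strand and Cyp51 at chr5:4081145-4104746 on the minus strand. No binding was measured, and a match describes the letters only.

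The libraries differed in depth and in composition. Their annotated transcripts carried 1080 to 1997 Mb of aligned sequence, and between 73.4 and 74.7% of transcripts were listed at 0. Size factors computed from the FPKM ranged from 0.944 to 1.04. Markers of epithelium, smooth muscle, stroma and macrophages were present. The 6 markers of steroid-making ovarian cells summed to between 0.935 and 5.28 FPKM. Of these, Star was above 0 in every library and Cyp19a1 at 0 in every library. Summed epithelial marker FPKM (10 of 10 markers detected) was 3970 to 5273 in control, 4985 to 6206 in competent and 3131 to 4811 in arrested libraries. Ltf, the highest of these markers in every library, was alone at 1760.9 to 2527.5, 2575 to 3430.7 and 1137.4 to 1885.3 in the same order. Summed FPKM of dividing-cell markers (8 of 8) was 48.0 to 69.2, 135 to 246 and 34.5 to 140.0 in the same order. For smooth muscle markers (8 of 8) it was 1618 to 1696, 1392 to 2782 and 881 to 2155. Arrested libraries 1 and 3 were the lowest for smooth muscle, at 881 and 1193. For stromal markers (8 of 8) it was 1627 to 1843, 1321 to 1996 and 1358 to 2536. Summed adipocyte marker FPKM (11 of 11) was 1430 in arrested library 2 and between 6.33 and 189 in the other 8. The part of these differences in the values below was not tested, and in whole tissue fewer cells of a type cannot be told apart from less RNA per cell.

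Among the mevalonate genes, Idi1, the isomerase that makes the reactive isoprenoid unit, stood at 3.93, 3.46 and 1.07 FPKM in control libraries 1 to 3, at 2.97, 7.30 and 4.67 in competent libraries and at 2.25, 2.39 and 2.30 in arrested libraries. All 3 arrested libraries were below all 3 competent libraries, and the control range covered the arrested one. Fdps, farnesyl diphosphate synthase, was at 20.2, 18.2 and 11.7 FPKM in control, 15.5, 27.3 and 19.4 in competent, and 16.7, 11.6 and 12.7 in arrested libraries, with overlap between each pair of groups. Mvk, mevalonate kinase, ranged from 9.35 to 14.4 FPKM in 8 libraries and was 5.81 in arrested library 3. Competent library 2 was the highest of 9 for Idi1 and Fdps.

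The other mevalonate genes could not be tested. Acat2, the cytosolic thiolase that opens the pathway, was listed at 0 in arrested libraries 1 and 3 and between 6.28 and 12.9 FPKM in the other 7. Its main coding transcript was marked as having full read support in all 9 libraries, those with a value of 0 included. Pmvk, phosphomevalonate kinase, was listed at 0 in control library 2, with 32.7 and 28.1 FPKM in arrested libraries 1 and 2 and 15.4 to 17.9 in the remaining 6. A 0 of this kind can be a failed division of reads among transcripts, so neither gene is given a mean.

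In the sterol branch, Sqle, squalene epoxidase and a control point of the pathway, was at 5.02, 5.28 and 1.54 FPKM in control, 2.66, 10.2 and 8.02 in competent, and 3.90, 3.79 and 4.53 in arrested libraries. Competent libraries 2 and 3 were above every other library, and competent library 1 was below all but control library 3. Cyp51, the lanosterol demethylase, was at 8.06, 8.52 and 4.05 FPKM in control, 6.35, 11.6 and 8.85 in competent, and 5.57, 6.29 and 9.69 in arrested libraries. Control library 3 held the lowest and competent library 2 the highest value of Idi1, Sqle and Cyp51. Nsdhl, a sterol demethylation enzyme, was steadier, at 8.37, 8.48 and 6.78 FPKM in control, 6.65, 6.76 and 7.58 in competent, and 6.73, 5.06 and 5.88 in arrested libraries. Every arrested library lay below every control library for Nsdhl.

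Lss, lanosterol synthase, was low, between 0.684 and 2.38 FPKM. Ebp, the sterol isomerase, had the highest level in the branch, between 57.3 and 98.7 FPKM, but that value came from the 526-nucleotide transcript Ebp-002 and the retained-intron transcript Ebp-003; the full-length Ebp-001 was at 0 in every library. Dhcr7, which makes the last reduction to cholesterol, ranged from 4.86 to 16.7 FPKM. Its 713-nucleotide transcript Dhcr7-004 was at 8.92 to 13.1 FPKM in control libraries 1 and 2 and in the 3 competent libraries, and at 0 in control library 3 and in the 3 arrested libraries. Sc5d, the sterol desaturase, ranged from 7.67 to 11.2 FPKM. Hsd17b7 ranged from 0.464 to 1.49 FPKM and was not tested. Fdft1, squalene synthase, and Tm7sf2, a sterol reductase, were listed at 0 in all 9 libraries. The transcript Fdft1-201 and 2 transcripts of Tm7sf2 were marked as having full read support in 9 of 9 libraries. The 0 of either gene is therefore not read as a lack of expression.

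**Figure D1:**
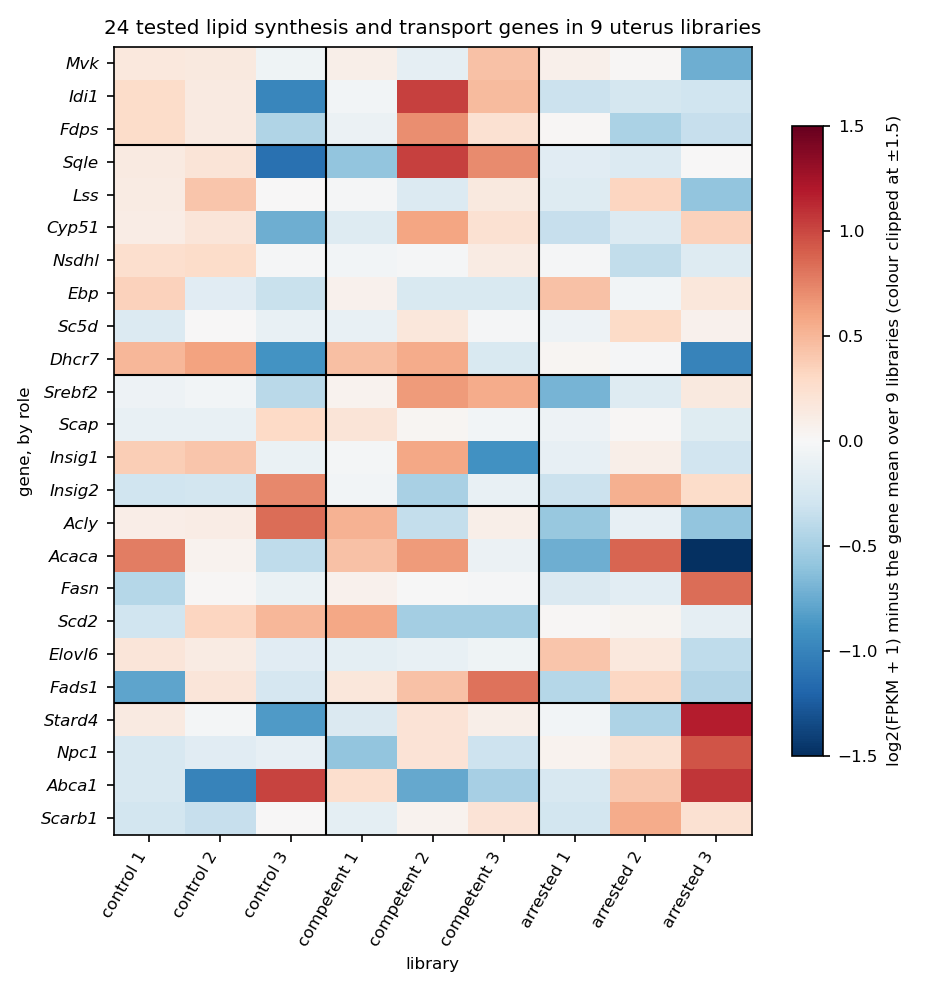
Colour shows log2(FPKM + 1) of each of the 24 tested genes (rows, grouped by role) in each of 9 libraries (columns), minus the gene's mean over the libraries. Idi1, Sqle and Cyp51 are lowest in control library 3 and highest in competent library 2, and Stard4, Npc1 and Abca1 are highest in arrested library 3.

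Of the sensors, Srebf2, the SREBP that acts mainly on cholesterol genes, was at 13.3, 13.7 and 10.3 FPKM in control, 14.6, 22.4 and 21.1 in competent, and 8.31, 12.1 and 15.7 in arrested libraries. All competent libraries were above all control libraries, while arrested library 3 was above competent library 1. Insig1, an anchor protein that is itself an SREBP target, was at 17.0, 17.6 and 12.005 FPKM in control, 12.6, 19.7 and 6.41 in competent, and 11.7, 13.7 and 10.4 in arrested libraries. In competent library 3 a further 11.1 FPKM was placed on a transcript assembled by the authors' software at Insig1, which the annotated sum leaves out. Scap, the escort protein, ranged from 14.4 to 20.6 FPKM. Insig2 ranged from 28.3 to 66.8 FPKM, nearly all of it on the coding transcripts Insig2-007 and Insig2-008 of 471 and 478 nucleotides. Of this pair, control libraries 1 and 2 carried Insig2-008 alone, control library 3 both, and the competent and arrested libraries Insig2-007 alone.

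Srebf1, the SREBP that acts mainly on fatty acid genes, was listed at 0 in 4 libraries (control 1, competent 2 and 3, arrested 2) and between 6.52 and 18.7 FPKM in the other 5. Its transcript Srebf1-005 was marked with full read support in all 9 libraries. With assembled transcripts that share a splice junction with Srebf1 added, its value was 8.17 to 19.3 FPKM in the 9 libraries, with no library at 0.

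The fatty acid genes had no common order over the libraries. Acly, which makes acetyl-CoA from citrate, was at 46.6, 47.0 and 78.6 FPKM in control, 62.7, 33.7 and 46.2 in competent, and 29.2, 39.9 and 28.7 in arrested libraries. Each arrested library was below each control library. In control library 3, 35.4 FPKM of that sum sat on the 772-nucleotide transcript Acly-003, which was at 0 in the other 8. Fads1, a desaturase of polyunsaturated fatty acids, was at 3.98, 8.74 and 6.23 FPKM in control, 8.65, 10.7 and 14.1 in competent, and 5.40, 9.72 and 5.37 in arrested libraries. Competent libraries 2 and 3 held the highest values, but control library 2 and arrested library 2 lay within the competent range.

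Fasn, fatty acid synthase, ranged from 18.3 to 26.0 FPKM in 8 libraries and was 45.2 in arrested library 3. There 30.7 FPKM sat on the 971-nucleotide retained-intron transcript Fasn-003, and the full coding transcript Fasn-001 was at 14.5, its lowest of the 9. Scd2, a stearoyl-CoA desaturase, had the highest level of all listed genes, 104 to 224 FPKM, with overlap between all groups. Elovl6, an elongase, ranged from 2.36 to 4.83 FPKM. Acaca, acetyl-CoA carboxylase and the entry to fatty acid synthesis, ranged from 0.797 to 4.48 FPKM in 8 libraries and was listed at 0 in arrested library 3.

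Scd1, the desaturase typical of adipocytes and liver, was at 6.42, 6.16 and 6.99 FPKM in control and 6.08, 20.0 and 6.14 in arrested libraries. It was at 4.72 in competent library 1 and listed at 0 in competent libraries 2 and 3. The highest value was in arrested library 2, the library with the adipocyte marker sum of 1430. The part of adipocytes in this value was not tested. Fads2 was listed at 0 in 6 libraries and between 2.83 and 6.68 FPKM in the other 3.

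Of the transport genes, Stard4 and Npc1 were well above their other values in arrested library 3. Stard4, which carries cholesterol between membranes inside the cell, was at 23.9 FPKM there and between 5.12 and 11.7 in the other 8 libraries. Npc1, which exports cholesterol from lysosomes, was at 10.2, 10.8 and 11.1 FPKM in control, 7.75, 14.2 and 9.68 in competent, and 12.7, 14.5 and 24.5 in arrested libraries. The arrested libraries were all above the control libraries, and competent library 2 lay within the arrested range. Abca1, the exporter of cholesterol to lipoproteins and a target of sterol-sensing LXR receptors, was at 6.76, 3.59 and 17.6 FPKM in control, 9.90, 4.39 and 5.48 in competent, and 6.80, 11.2 and 18.3 in arrested libraries. Its 2 highest annotated values were in control library 3 and arrested library 3, so the order of these values did not follow the groups. Assembled transcripts at Abca1 held more, a mean of 17.7 FPKM over the 9 libraries beside 9.33 for the annotated sum. With them included, every Abca1 value in arrested libraries was above every competent one. Control library 3, at 39.3, still lay within the arrested range. Scarb1, the lipoprotein receptor, ranged from 9.52 to 18.6 FPKM, with the highest value in arrested library 2.

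**Figure D2:**
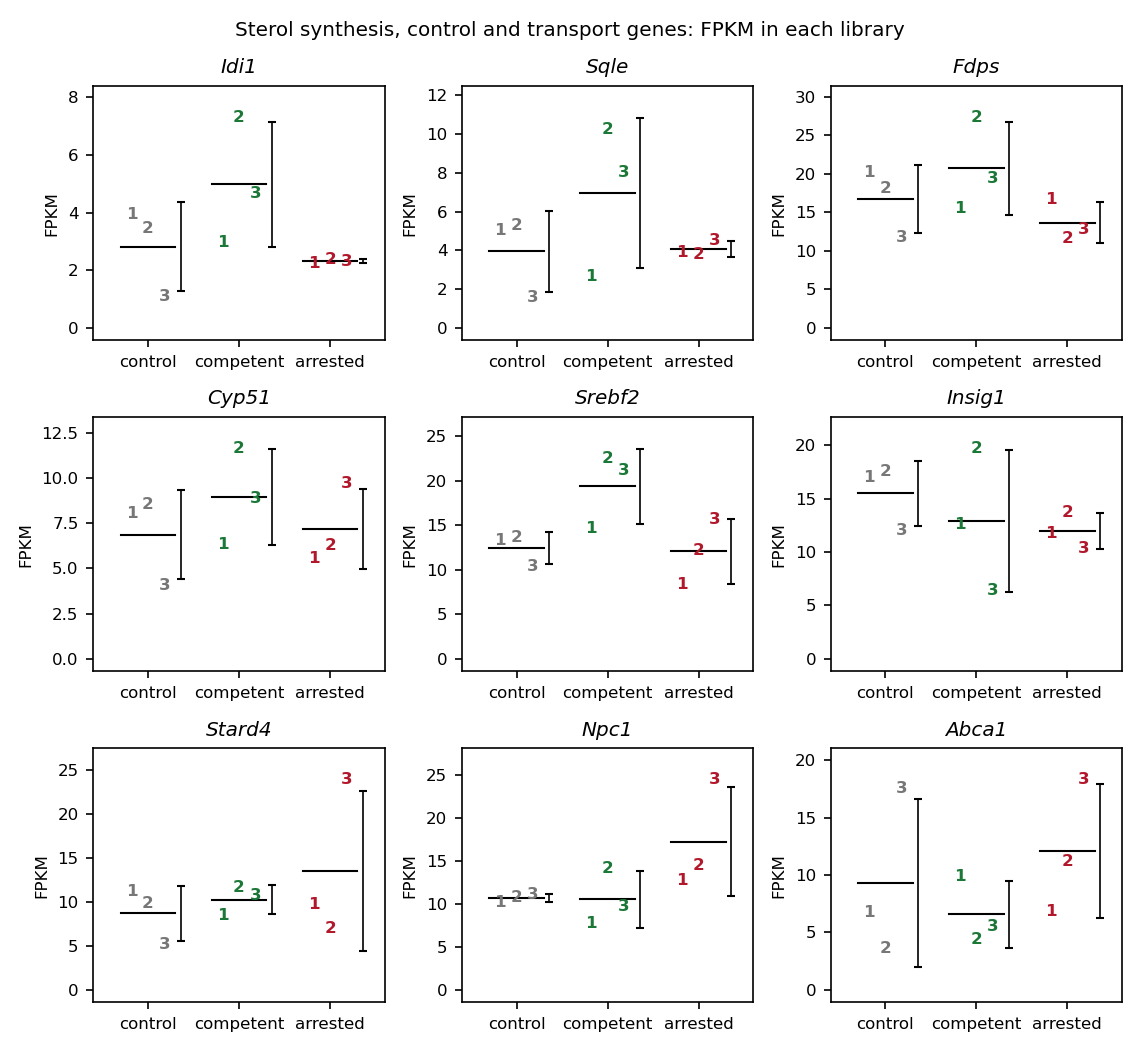
FPKM of 9 genes of sterol synthesis, control and transport, with each library drawn as its replicate number, the mean as a line and the SD as a bar (3 libraries per group). For Idi1 the arrested libraries (2.25 to 2.39) sit below the competent ones (2.97 to 7.30), and for Stard4, Npc1 and Abca1 arrested library 3 is the highest point.

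No listed gene passed the threshold in any of the 3 comparisons. The comparisons share libraries, since each group enters 2 of them, so a group that is high or low moves both. The differences that follow are on the log2(FPKM + 1) scale from limma with Benjamini-Hochberg adjustment over the 12039 genes, as difference ± SE, with 3 libraries per group. In simulated data made from these libraries' spread, 50.3% of the genes given a log2 change of 1 between arrested and competent libraries were called, and 86.3% of those given a change of 2. In each simulation 200 genes were changed, all to higher values in the arrested libraries. The share called depends on that number, so these shares hold for that setting only. Changes were given only to genes with a mean log2(FPKM + 1) above 3, so these shares do not describe lower genes such as Idi1, Sqle and Lss.

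Between arrested and competent libraries, 0 of 24 listed genes were called, against 0.0914% of all genes tested (11 genes). An unadjusted p under 0.05 was reached by 1 listed gene in the higher and 1 in the lower direction, against 5.64% and 6.07% of all genes. Npc1 was higher after arrested embryo medium by 0.65 ± 0.27 (limma unadjusted p = 0.041, adjusted p = 0.40), and by 0.38 without arrested library 3. Srebf2 differed by -0.66 ± 0.25 (limma unadjusted p = 0.027, adjusted p = 0.36). Next came Fads1 at -0.65 ± 0.31, Idi1 at -0.79 ± 0.38 and Fdps at -0.55 ± 0.26, each with a limma adjusted p of 0.46. The Fads1 difference was -0.17 with assembled transcripts included and -0.21 by exon coverage, a second measure defined below. Abca1 differed by 0.76 ± 0.53 (limma adjusted p = 0.63). Its difference was 1.04 with assembled transcripts included and 0.98 by exon coverage (limma adjusted p of 0.40 and 0.37). The groups did not overlap for Abca1 with assembled transcripts included, and overlapped by exon coverage. With assembled transcripts included, Npc1 stood at 0.48 and Srebf2 at -0.44 (limma unadjusted p of 0.075 and 0.063). By exon coverage these 2 genes stood at 0.47 and -0.56 (limma unadjusted p of 0.061 and 0.0084). Without competent library 2, Idi1 stood at -0.52 and Fdps at -0.34.

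By role, the 3 tested mevalonate genes were all lower in arrested than in competent libraries (median -0.55). The sterol branch had 5 of 7 lower (median -0.22), the sensors 2 of 4 (median -0.07) and the fatty acid genes 3 of 6 (median -0.19). The fatty acid genes include Acaca at -0.81, with its listed 0 in arrested library 3, where assembled transcripts held 7.48 FPKM. Acaca stood at 0.30 with assembled transcripts included and at -0.03 by exon coverage. The 4 transport genes were all higher (median 0.42), and 3 of 4 were (median 0.24) without arrested library 3, where Stard4 stood at -0.27. Without arrested library 2 the transport genes were 3 of 4 higher (median 0.64). The medians of the fatty acid genes and the sensors also moved when 1 library was left out. The fatty acid genes were 4 of 7 higher without control library 3 (median 0.12) and without arrested library 2 (median 0.09). In both cases Fads2 entered the test. Control library 3 is not part of this comparison. Leaving it out changed the set of genes tested and not the differences of the genes tested before. The sensors had a median of -0.14 without arrested library 2 and of 0.0031 without arrested library 3. Over the 24 genes, 13 were lower and 11 higher with a median of -0.14, and over all genes tested 51.2% were lower with a median of -0.01. The groups did not overlap for 1 listed gene in the lower direction, Idi1, and for 0 in the higher direction, where the shares over all genes were 9.20% and 8.05%.

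Between competent and control libraries, 0 of 24 listed genes were called, against 0.0249% of all genes (3 genes). Fads1 was higher by 0.76 ± 0.31 (limma unadjusted p = 0.038, adjusted p = 0.89) and Srebf2 by 0.59 ± 0.25 (limma unadjusted p = 0.044, adjusted p = 0.89). With assembled transcripts included the differences were 0.16 for Fads1 and 0.39 for Srebf2, and by exon coverage 0.26 and 0.37. The assembled transcripts of Fads1 were at 5.09 and 5.13 FPKM in control libraries 1 and 3, at 3.91 and 6.44 in arrested libraries 2 and 3, and at 0 in the others. Those 2 genes of 24 compare with 2.70% of all genes in the higher direction, and 0 listed genes with 2.82% in the lower. The next differences were 0.68 ± 0.38 for Idi1, 0.65 ± 0.46 for Sqle and 0.36 ± 0.32 for Cyp51 (limma adjusted p between 0.94 and 0.96). The 3 tested mevalonate genes were higher (median 0.30), as were 4 of 7 in the sterol branch (median 0.12). In all, 14 of the 24 genes were higher and 10 lower with a median of 0.09, where 51.6% of all genes were lower with a median of -0.01. Without control library 3, in which Idi1, Sqle and Cyp51 were lowest, Hsd17b7 and Fads2 entered the test. Of these 26 genes 12 were higher (median -0.01), a count over a changed set. The differences of Idi1, Sqle and Cyp51 were then 0.29, 0.22 and 0.06. Without competent library 2, Idi1 stood at 0.41 and Sqle at 0.33. Without control library 3 the mevalonate genes were 2 of 3 higher (median 0.07) and the sterol branch, with Hsd17b7 added, 3 of 8 (median -0.13). Srebf2 was the 1 gene whose groups did not overlap in the higher direction, beside 7.05% of all genes, and 0 genes did so in the lower, beside 8.40%.

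Between arrested and control libraries, 0 of 24 listed genes were called, against 0.00831% of all genes (1 gene). Acly differed by -0.77 ± 0.28 (limma unadjusted p = 0.022, adjusted p = 0.87), where 3.33% of all genes reached an unadjusted p under 0.05 in the lower direction and 2.11% in the higher, which no listed gene did. Npc1 followed at 0.59 ± 0.27, Nsdhl at -0.37 ± 0.17, Scarb1 at 0.37 ± 0.23 and Sc5d at 0.20 ± 0.17 (limma adjusted p between 0.90 and 0.92). Npc1 stood at 0.32 without arrested library 3, and Scarb1 at 0.18 without arrested library 2. With assembled transcripts included, Acly stood at -0.38 and Sc5d at -0.20. The listed genes split into 12 higher and 12 lower (median -0.03, where 53.1% of all genes were lower with a median of -0.02). Npc1 did not overlap in the higher direction, beside 3.59% of all genes, and Nsdhl and Acly did not overlap in the lower direction, beside 5.54%. The 4 transport genes were again all higher (median 0.48), and 3 of 4 were (median 0.24) without arrested library 3.

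**Figure D3:**
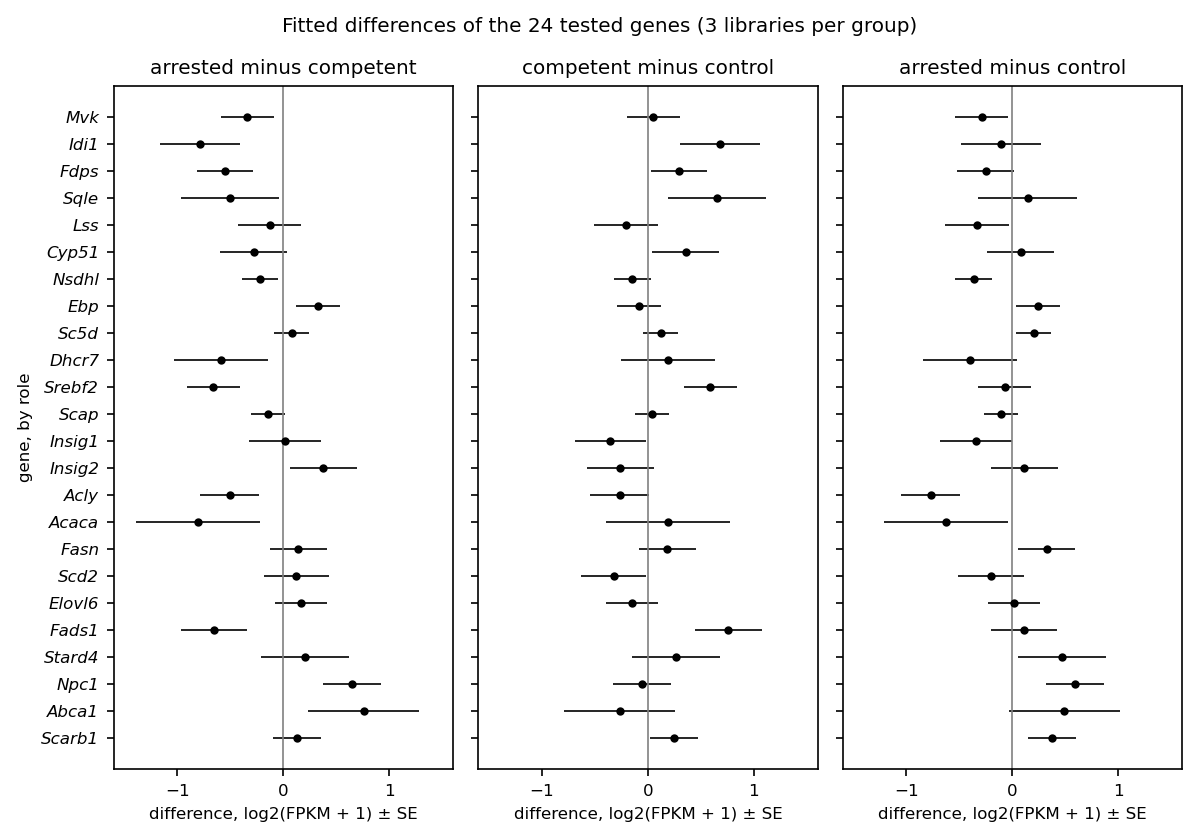
Fitted differences of the 24 tested genes on the log2(FPKM + 1) scale, with the SE as bars, in the 3 comparisons. Mvk, Idi1 and Fdps lie left of 0 between arrested and competent libraries and right of 0 between competent and control libraries, and no gene passed the adjusted threshold in any panel.

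Because several values hung on which transcript received the reads, a second measure was set beside the first. Exon coverage is the read depth summed over a gene's annotated and assigned assembled transcripts, divided by the length of its annotated exons and scaled to FPKM units within each library. It was chosen after the FPKM had been seen, and its levels are not compared between genes. Assembled sequence outside the annotated exons adds to the depth but not to the length. Libraries can therefore differ within a gene by what was assembled in them. Fads2 with assembled transcripts was at 7.75 FPKM in control library 1 and 7.62 in arrested library 1. By coverage it was at 15.2 and 10.0.

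Srebf1, Acaca and Fads2, listed at 0 in some libraries by FPKM, had no 0 by coverage. Acat2, Pmvk and Scd1 stayed at 0 in the same libraries as by FPKM, and Fdft1 and Tm7sf2 in every library. Srebf1 was at 13.6, 17.3 and 14.3 in control, 16.2, 17.5 and 14.03 in competent, and 12.4, 17.6 and 17.9 in arrested libraries, with no library at 0. Acaca was at 3.63, 3.93 and 3.78 in control, 3.48, 3.66 and 3.29 in competent, and 2.63, 4.51 and 3.19 in arrested libraries. The groups overlapped for both genes. Fads2 was at 15.2, 18.4 and 21.4 in control, 16.9, 31.4 and 27.2 in competent, and 10.0, 30.7 and 20.0 in arrested libraries, again with overlap. Acly was at 38.9, 39.2 and 39.0 in control, 41.3, 35.9 and 36.2 in competent, and 32.5, 33.3 and 33.0 in arrested libraries, which put each arrested library below each library of the other groups.

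Fasn went from the highest of 9 in arrested library 3 by FPKM to the lowest by coverage. Its coverage was 24.7, 24.5 and 22.6 in control, 25.3, 24.1 and 23.98 in competent, and 20.7, 21.6 and 17.1 in arrested libraries. Every arrested library was below every other library. Sc5d was at 15.03, 16.1 and 13.4 in control, 15.2, 19.0 and 16.7 in competent, and 13.4, 9.97 and 8.26 in arrested libraries. The authors' software assembled a further Sc5d transcript of 3.23 to 5.02 FPKM in 7 libraries and none in arrested libraries 2 and 3, which held the 2 lowest coverage values.

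**Figure D4:**
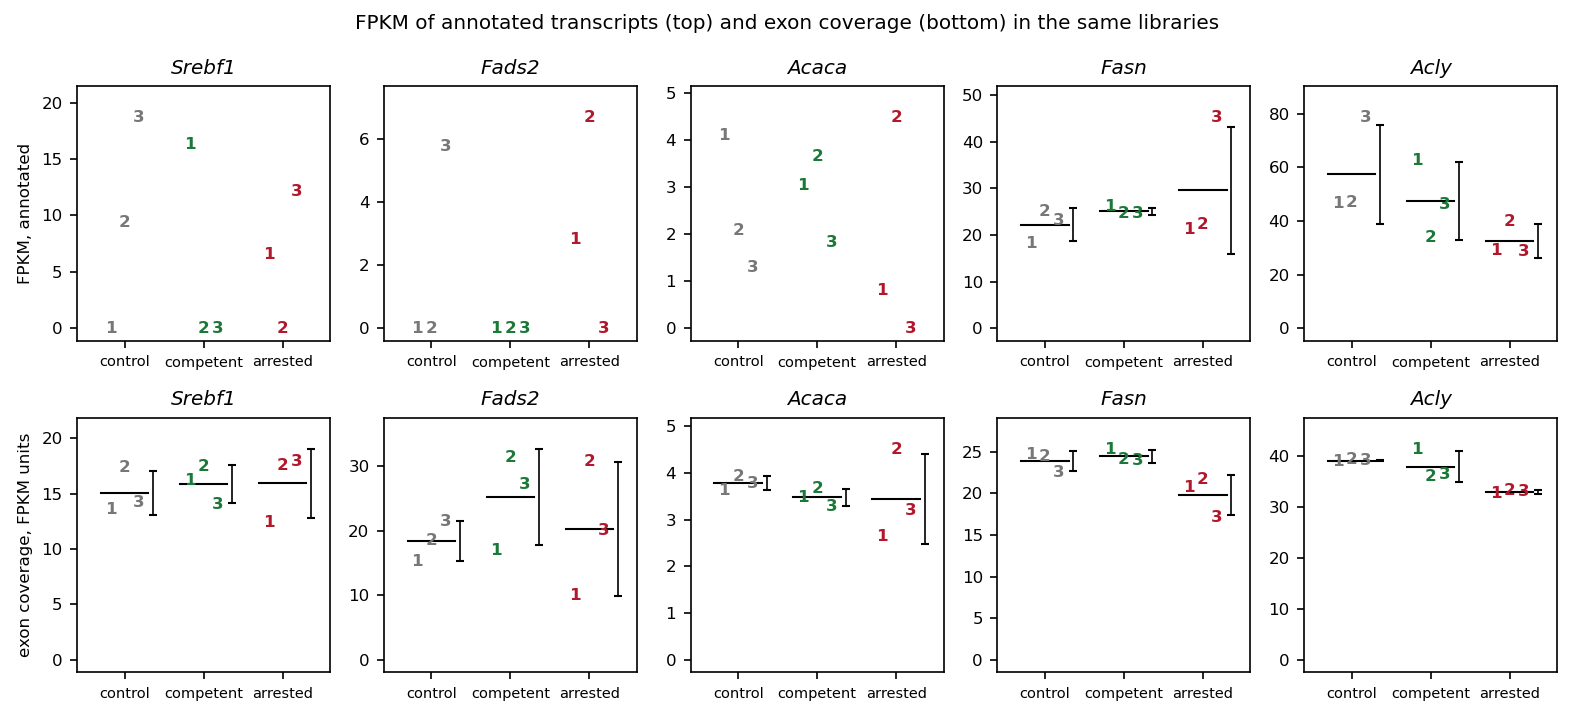
FPKM of annotated transcripts (top) and exon coverage in FPKM units (bottom) of 5 genes, with each library drawn as its replicate number; the mean and SD (3 libraries per group) are drawn where no library is at 0. Srebf1 and Fads2 have libraries at 0 in the top row and none in the bottom row, and Fasn in arrested library 3 is at 45.2 above and 17.1 below.

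By coverage, 20 of 26 tested genes were lower in arrested than in competent libraries (median -0.20), beside 50.8% of all genes. No listed gene was called, against 0.504% of all genes (65 genes), and the smallest limma adjusted p was 0.14. Of the 26 genes, 6 had an unadjusted p under 0.05 in the lower direction and 0 in the higher, beside 8.53% and 6.88% of all genes. They were Sc5d (-0.66 ± 0.17), Srebf2 (-0.56 ± 0.17), Sqle (-0.63 ± 0.26), Fdps (-0.61 ± 0.25), Mvk (-0.50 ± 0.19) and Fasn (-0.30 ± 0.11). These are a sterol desaturase, the SREBP gene, an epoxidase, a prenyl synthase, a kinase and fatty acid synthase, so they come from 4 of the 5 roles and not from transport. By annotated FPKM, Sc5d and Fasn went the other way, at 0.08 and 0.14. With assembled transcripts included they stood at -0.31 and 0.14. Srebf2, Sqle, Fdps and Mvk were in the lower direction by FPKM as well. The groups did not overlap for 7 genes in the lower direction (Acly, Fasn, Idi1, Mvk, Sc5d, Sqle and Srebf2), beside 11.1% of all genes, and for Ebp in the higher direction, beside 9.45%.

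The count of 20 of 26 lower was the same without arrested library 2 (the adipocyte-rich one) and without arrested library 3. Beside it, 53.9% and 48.6% of all genes were lower. Control library 3 is not part of this comparison, so leaving it out could not change the direction of any difference. Genes with an unadjusted p under 0.05 in the lower direction numbered 8 without control library 3, 5 without arrested library 2 and 2 without arrested library 3. In the higher direction they numbered 1, 1 and 0. Over all genes, 16.2%, 17.2% and 18.6% had such a p in either direction in these settings. Coverage of Sqle itself was 3.90, 3.89 and 1.80 in control, 3.55, 6.51 and 3.99 in competent, and 3.01, 2.54 and 2.25 in arrested libraries. Srebf2 was at 16.1, 17.0 and 12.985 in control, 17.9, 22.4 and 20.1 in competent, and 10.6, 14.1 and 15.7 in arrested libraries. Both genes had their highest library in the competent group and overlapped between arrested and control libraries. For the summed markers of epithelium, and likewise of dividing cells, 2 of the 3 competent libraries were above every library of the other groups. The epithelial sum was led by Ltf, and of its markers only Ltf and Cdh1 were highest in a competent library. The part of these cells in the coverage differences was not tested.

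Between competent and control libraries, coverage put 17 of 26 genes higher (median 0.08), where 52.7% of all genes were lower, with 0 called, beside 0% of all genes. At an unadjusted p under 0.05 there were 0 listed genes, beside 3.11% of all genes higher and 3.51% lower. Srebf2 was the 1 gene without overlap in the higher direction, beside 7.98%, and there was none in the lower, beside 10.6%. Between arrested and control libraries, 15 of 26 were lower (median -0.15), beside 53.9% of all genes, with 0 called, beside 0.00776%. An unadjusted p under 0.05 was reached by Sc5d (-0.48 ± 0.17), Nsdhl (-0.35 ± 0.14), Acly (-0.24 ± 0.10) and Fasn (-0.27 ± 0.11) in the lower direction, beside 4.40% of all genes, and by Npc1 (0.55 ± 0.22) in the higher, beside 2.09%. The groups did not overlap for Acly, Fasn and Nsdhl in the lower direction, beside 6.59%, and for Npc1 in the higher, beside 3.24%.

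Other genes of the same pathways did not pass the threshold either. Of 6 other sterol synthesis enzymes, 5 were tested. Between arrested and competent libraries the smallest p-values were those of Cyb5r3, a cytochrome reductase (1.00 ± 0.32, limma adjusted p = 0.32), and Por, the electron donor of Cyp51 and Sqle (-0.64 ± 0.27, limma adjusted p = 0.40). Por was at 159 ± 26.1 FPKM in control, 157 ± 43.8 in competent and 101 ± 31.4 in arrested libraries (SD, n = 3). The arrested minus control differences nearest to the threshold were again Por (-0.69 ± 0.27) and Sc4mol, a sterol demethylation oxidase (-0.82 ± 0.47). Between competent and control libraries Cyb5r3 differed by -0.76 ± 0.32.

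Of 13 other cholesterol handling genes, 11 were tested and 0 called in any comparison. Osbp, an oxysterol-binding lipid exchanger, was at 15.5 ± 0.111 FPKM in control, 16.7 ± 1.18 in competent and 10.98 ± 2.19 in arrested libraries (SD, n = 3), a difference of -0.58 ± 0.17 from competent (limma adjusted p = 0.28) and of -0.48 ± 0.17 from control (limma adjusted p = 0.87). Cyp27a1, a sterol hydroxylase, differed by 0.93 ± 0.44 between arrested and competent and by -0.88 ± 0.44 between competent and control libraries. Stard3 (-0.53 ± 0.30, competent minus control) and Cyp7b1 (-0.36 ± 0.25, arrested minus control) were the other genes of small p here.

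Of 20 other fatty acid and lipid synthesis genes, 17 were tested and 0 called. Agpat2, an acyltransferase of triglyceride and phospholipid synthesis, was at 19.5 ± 1.06 FPKM in control, 17.6 ± 1.89 in competent and 28.8 ± 4.19 in arrested libraries (SD, n = 3). Its difference was 0.68 ± 0.16 from competent (limma adjusted p = 0.19) and 0.53 ± 0.16 from control (limma adjusted p = 0.87). The elongase Elovl1 differed by -0.37 ± 0.13 between arrested and control, Pcyt2, of phospholipid synthesis, by -0.46 ± 0.25 between arrested and competent, and Elovl5 and Me1 by -0.72 ± 0.38 and 0.66 ± 0.39 between competent and control libraries.

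Of 11 other genes of SREBP processing and sterol response, 10 matched a gene, 8 were tested and 0 were called. The smallest p-values belonged to Fbxw7, a ligase subunit that removes nuclear SREBP (-0.25 ± 0.32, arrested minus competent, and 0.28 ± 0.32, competent minus control), Mylip, the ligase that removes lipoprotein receptors (0.22 ± 0.29, arrested minus competent, and 0.10 ± 0.29, arrested minus control), and Rnf139 (-0.89 ± 0.73, competent minus control, and -0.91 ± 0.73, arrested minus control).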

How the data were processed

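RNA of 9 mouse uterus libraries (3 control, 3 competent, 3 arrested) was analysed. The submitters' processing notes name mm9, Bowtie 0.12.2 and Cufflinks, whose version is not given in the sources used here. FPKM per transcript and a coverage signal, the mean read depth over each transcript, were deposited by the authors (per the file headers). Depth in reads is unknown. Transcripts were joined to GENCODE vM1 genes by identifier (1356 were not in it), and FPKM were summed per gene with Python 3.11.15, pandas 2.3.3 and numpy 2.4.6. Genes averaging at least 1 FPKM were tested with limma 3.58.1 in R 4.3.3 on log2(FPKM + 1), all 9 libraries in 1 fit with a mean trend, with Benjamini-Hochberg adjustment over all genes and a threshold of 0.05. A gene listed at 0 in some libraries while the others averaged over 5 FPKM was left out, without use of the groups. The fit was tested on simulated data. Equal replicate numbers were not taken as pairs.

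The list, its roles and the further lists were chosen with earlier results of these data known. All listed genes are described. Differences are given for those called, then those with an unadjusted p under 0.05, filled to 5 by smallest p. They are also given for the 2 of smallest p in each further list, and for Abca1, Acaca, Fasn and Sc5d between arrested and competent libraries. The value of 1 gene that this rule names is not reported here. Alternatives covered the transcripts summed, pseudocount, filters, scaling, trend, groups fitted, block and each library left out.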

Additional observations from a re-analysis of the deposited data

How the results depend on the processing

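No listed gene was called in any comparison under any alternative run. The median difference of the listed genes ran from -0.20 to 0.01 between arrested and competent libraries (0.01 with failed estimates kept and with a mean of at least 5 FPKM), from -0.01 (without control library 3) to 0.12 between competent and control, and from -0.20 to 0.08 between arrested and control libraries, so its sign was not kept in any of them. The number of all genes called was less stable. Between arrested and competent libraries it was 31 with assembled transcripts, 6 with no filter on low values, 18 with failed estimates kept, 22 with them left out within groups, 4 without a mean trend, 0 in a fit of the 2 groups, 65 by exon coverage and 0 to 38 with 1 library left out (0 without competent library 2 or 3, 38 without arrested library 2). Between competent and control libraries it was 1, 7, 6 and 8 under the first 4 of these, 0 by exon coverage and 0 to 5 with 1 library left out. Between arrested and control libraries it was 0 with the transcript of highest mean FPKM only, 4, 7 and 7 under the 3 filter settings, 0 without a trend, 0 in the fit of the 2 groups and 0 to 5 with 1 library left out. By exon coverage with control 3, arrested 2 or arrested 3 left out it was 85, 184 and 61 between arrested and competent, 0 in each case between competent and control, and 6, 1 and 3 between arrested and control libraries. The causes were not tested. Exon coverage was added after the data had been seen.

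Sc5d between arrested and control libraries reversed, to -0.20 with assembled transcripts and -0.48 by exon coverage, and to -0.55, -0.45 and -0.33 by coverage without control 3, arrested 2 and arrested 3. With the replicate number as a block, 0 genes were called in each comparison. Same-numbered libraries correlated at -0.07 to 0.17 in their deviations from the group means, so the numbers were not taken as pairs. Depth in reads is unknown, so genes of a few FPKM, Idi1, Sqle and Lss among them, are measured with unknown counting error, and 3 libraries per group leave wide errors.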
